A study of Mus musculus with 20 samples.

Results

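Translation initiation factors are the proteins that bring a messenger RNA to the ribosome and place the ribosome at a start codon. Their genes were taken by symbol, as every gene from Eif1 to Eif6 in the deposited tables other than pseudogene names, which gave 55 of 24411 genes. Of these, 54 were treated as general factors and 1, Eif4e1b, a cap-binding form known from oocytes, was set apart. RNA came from 16 pools of 10 mouse embryos, made by in vitro fertilisation of superovulated oocytes and cultured in KSOM medium. In a knockdown, one-cell embryos were electroporated with siRNA against Pcgf5 (siPcgf5) or with non-targeting siRNA (siControl), and 2 pools of each were taken late in the 2-cell stage, 36 hours after insemination, and 2 of each as morulae at 72 hours. In a knockout, 4-cell embryos taken at 48 hours lacked both copies (Homo KO, 3 pools) or 1 copy (Hetero KO, 3 pools) of the MT2C_Mm repeat located at Pcgf5, or were WT (2 pools). The 4-cell embryos were not labelled as siRNA-treated. The mouse strain, how the deletion was made and whether pools came from separate cultures are not given in the sources used here, so p-values measure the spread between these pools alone. The series asks what Pcgf5, driven by the MERVL repeat family to which MT2C_Mm belongs, has to do with the suppression of zygotic genome activation, in which the embryo starts to transcribe its genes.

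Initiation starts when eIF2 carries the initiator transfer RNA to the small ribosomal subunit, helped there by eIF1, eIF1A, eIF3 and eIF5. The mRNA is brought by eIF4F, made of the cap-binding protein eIF4E, the helicase eIF4A and the scaffold eIF4G, and eIF5B then joins the large subunit. Cells limit the process at eIF2, whose alpha subunit is phosphorylated by 4 kinases and whose recycling needs eIF2B, and at eIF4E, which is held by the 4E-BP proteins. Oocytes store many mRNAs untranslated, and the early embryo replaces that stored RNA with its own.

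By the main test described below, 34 of the 55 members rose from late 2-cell embryos to the morula in siControl and 7 fell. The counts depend on the scaling and were 25 and 15 on the other measure of level given below. The promoters of 2 that rose and 2 that fell are shown to set these genes beside each other. RefSeq (GRCm38.p6) gave an upstream sequence for 43 of the 55 members. Each line holds the 250 bases before the annotated start, 5′ to 3′ on the gene's strand, and capitals mark every CACGTG (an E-box) and every GGGCGG (a GC box) or its reverse complement. Eif3d, a subunit of eIF3, and Eif4h, a partner of the eIF4A helicase, had the largest rises in siControl. Eif1b, a paralogue of Eif1, and Eif2ak2, the kinase PKR, were among those that fell. The windows are chr15:77970825-77971074 (minus strand) for Eif3d, chr5:134639410-134639659 (minus strand) for Eif4h, chr9:120492356-120492605 (plus strand) for Eif1b and chr17:78882573-78882822 (minus strand) for Eif2ak2.
Eif3d: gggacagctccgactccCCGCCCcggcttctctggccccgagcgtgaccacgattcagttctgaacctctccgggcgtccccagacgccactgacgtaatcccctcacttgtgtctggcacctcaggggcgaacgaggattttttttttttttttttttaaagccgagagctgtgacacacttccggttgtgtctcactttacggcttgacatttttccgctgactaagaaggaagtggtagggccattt
Eif4h: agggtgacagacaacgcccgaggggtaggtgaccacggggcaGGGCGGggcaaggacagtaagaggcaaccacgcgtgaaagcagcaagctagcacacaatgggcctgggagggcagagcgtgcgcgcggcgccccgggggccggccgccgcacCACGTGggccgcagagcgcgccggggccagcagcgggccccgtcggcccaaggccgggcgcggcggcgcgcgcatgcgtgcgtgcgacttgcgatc
Eif1b: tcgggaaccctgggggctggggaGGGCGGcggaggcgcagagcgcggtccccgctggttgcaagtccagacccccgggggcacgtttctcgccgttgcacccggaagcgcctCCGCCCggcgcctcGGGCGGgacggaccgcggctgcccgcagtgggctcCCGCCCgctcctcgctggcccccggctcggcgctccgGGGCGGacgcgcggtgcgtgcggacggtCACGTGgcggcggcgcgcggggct
Eif2ak2: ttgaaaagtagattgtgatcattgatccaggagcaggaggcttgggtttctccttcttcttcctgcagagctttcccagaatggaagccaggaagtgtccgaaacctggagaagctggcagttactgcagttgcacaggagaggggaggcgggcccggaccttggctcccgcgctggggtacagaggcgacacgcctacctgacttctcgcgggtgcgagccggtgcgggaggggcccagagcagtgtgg

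Eif4h and Eif1b each held 1 E-box, and Eif3d, Eif4h and Eif1b held 1, 1 and 5 GC boxes. Eif2ak2 held neither. Eif1b had 42 CpG dinucleotides, Eif4h 34, Eif3d 16 and Eif2ak2 12. Over the 56 annotated starts of the 43 members, both strands read, CACGTG stood in 19.6%, against 6.02% of all 32851 starts. GGGCGG stood in 67.9% of member starts and 32.7% of all starts, CCGGAA (a core read by ETS factors) in 32.1% and 12.0%, and TATAAA in 7.14% and 12.4%. None of these 4 motifs contains another, and the median number of CpG in the window was 19 for members and 6 for all starts. A GC box was held by 21 of the 27 genes with an entry that rose in siControl and by 3 of the 5 that fell. A match describes these letters and is not evidence of binding.

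Depth was 14310634 to 55620137 summed counts per library, with the 8 4-cell libraries at 14310634 to 17871206 and the 8 knockdown libraries at 22435872 to 55620137. Pcgf5, the targeted gene, stood at 53.9 and 89.4 CPM (counts relative to TMM-adjusted library totals) in siPcgf5 late 2-cell pools, against 316 and 811 CPM in siControl. In morulae siPcgf5 pools held 39.5 and 32.4 CPM of it, against 246 and 166 CPM in siControl pools, and the 4-cell pools held it at 162 to 211 CPM in Homo KO, 252 to 336 CPM in Hetero KO and 294 to 328 CPM in WT. Summed TPM (transcript levels that allow for gene length) of the 10 oocyte genes was 45.6 to 82.5 in morulae and 30500 to 49820 at the late 2-cell stage, and that of 9 late 2-cell genes was 8.74 to 24.9 in morulae and 1765 to 3118 at the late 2-cell stage. Summed TPM of the 10 morula genes was 275 to 331 in morulae and 38.0 to 54.5 at the late 2-cell stage, and Cdx2 was at 0 in the siPcgf5 late 2-cell pools and in every 4-cell group. Summed TPM of 10 cumulus and granulosa markers was 0.05 to 0.91 in morulae and 23.3 to 39.4 at the late 2-cell stage, with Amh at 0 in every group. Summed TPM of 7 sperm markers was 1.97 to 3.85 and 52.9 to 77.9, and that of 8 blood markers 45.2 to 91.7 and 1087 to 1778, in the same order, with Hbb-bs and Hbb-bt at 0 in all groups. With TMM over the 8 knockdown libraries, the blood marker Hba-a2 stood at 244 to 348 CPM at the late 2-cell stage. In morulae Hba-a2 stood at 16.4 to 38.2 CPM, so the blood sum does not speak for all 8 markers alike. On this scale the blood marker Lyz2 stood at 312 CPM in replicate 1 of siControl late 2-cell pools. It stood at 1.36 to 3.37 CPM in the other late 2-cell pools. Cd68 stood at 12.9 CPM in that replicate, 1.01 to 1.49 CPM in the other late 2-cell pools and 7.25 to 13.0 CPM in morulae. The part of these other-cell markers in the results was not tested. In these bulk pools, fewer cells of a kind and less RNA per cell cannot be told apart.

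All 55 members passed the filter on low counts in each of the 3 fits. Per unit of length the most abundant over the 16 libraries were Eif1, which guards start codon choice, at a mean of 3866 TPM, Eif2s2 (the beta subunit of eIF2) at 2100 TPM, Eif4e at 1575 TPM and Eif5a at 1429 TPM. Eif5, the GTPase-activating factor of eIF2, followed at 772 TPM, then the eIF3 subunits Eif3e at 746 TPM and Eif3m at 743 TPM, Eif2s1 (the alpha subunit of eIF2) at 635 TPM, Eif4a3 at 556 TPM and Eif3g at 517 TPM. The lowest were Eif2ak2 at 0.396 TPM, Eif2ak4 at 1.49 TPM, Eif4ebp2 at 2.59 TPM and Eif4ebp3 at 3.10 TPM, followed by Eif2ak3 at 4.26 TPM, Eif4e1b at 4.32 TPM and Eif4g3 at 4.44 TPM. Members together took 19955 and 20481 TPM in siPcgf5 morulae and 20328 and 18980 TPM in siControl morulae. Late 2-cell pools held 13743 and 13524 TPM in siPcgf5 and 12181 and 14854 TPM in siControl, and every 4-cell pool held between 18864 and 21008 TPM. The late 2-cell pools lay below all others by this measure.

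From the late 2-cell stage to the morula, 34 of the 55 members rose and 7 fell in siControl embryos by edgeR's quasi-likelihood test (adjusted p under 0.05), where 24.9% of the 16980 genes tested were called higher and 28.1% lower. The members' median log2 fold change was 1.44 and that of all genes -0.34. In siPcgf5 embryos, which share no pool with the controls, 36 rose and 8 fell, with 24.5% of all genes called higher and 28.2% lower, and medians of 1.55 for members and -0.38 for all genes. Both comparisons came from 1 fit with shared scaling and shared estimates of spread, so their calls are not independent. The same 34 genes rose and 6 fell in both, and 5 (Eif2a, Eif2ak3, Eif3j2, Eif4g3 and Eif5b) were called in 1 of them only. Groups did not overlap for 40 members on the higher side and 11 on the lower in siControl, where 78.8% of all genes did not overlap, and for 42 and 11 in siPcgf5, where 80.6% did not.

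TMM-scaled counts and the deposited TPM place zero differently between these stages, so calls were also made by limma on log2(TPM + 1). In siControl the members' median log2 fold change was 1.44 with TMM, 0.82 with library sizes alone and 0.46 by limma on TPM. TPM ratios lay lower than the edgeR fold changes by a median of -1.02 (log2) in siControl over 8324 genes and by -0.87 in siPcgf5. By limma on TPM 25 members were higher and 15 lower in siControl, against 14.4% and 43.5% of all genes. Of all genes called, 47.0% were higher by edgeR with TMM, 31.4% with library sizes alone and 24.9% by limma on TPM in siControl, and 46.5%, 31.4% and 27.2% in siPcgf5. The 5 settings put the median of all genes between -0.34 and -0.98 in siControl, and 40 to 45 members lay above it. The 25 were called higher by each of the 5, which also include DESeq2 size factors and DESeq2 itself, and the 7 that fell by edgeR were called lower by each. They are Eif2b2, Eif2b3, Eif2b4, Eif2b5, Eif2d, Eif2s2, all 12 eIF3 genes other than the Eif3j pair, Eif4a1, Eif4a2, Eif4a3, Eif4g1, Eif4h, Eif4ebp1 and Eif5a, and those that fell are Eif1b, Eif2ak2, Eif2ak3, Eif4e1b, Eif4e3, Eif4enif1 and Eif5a2. The other 9 that rose by edgeR (Eif1a, Eif1ad, Eif1ax, Eif2s1, Eif2s3x, Eif4b, Eif4e2, Eif5 and Eif6) did not pass on TPM.

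**Figure D1:**
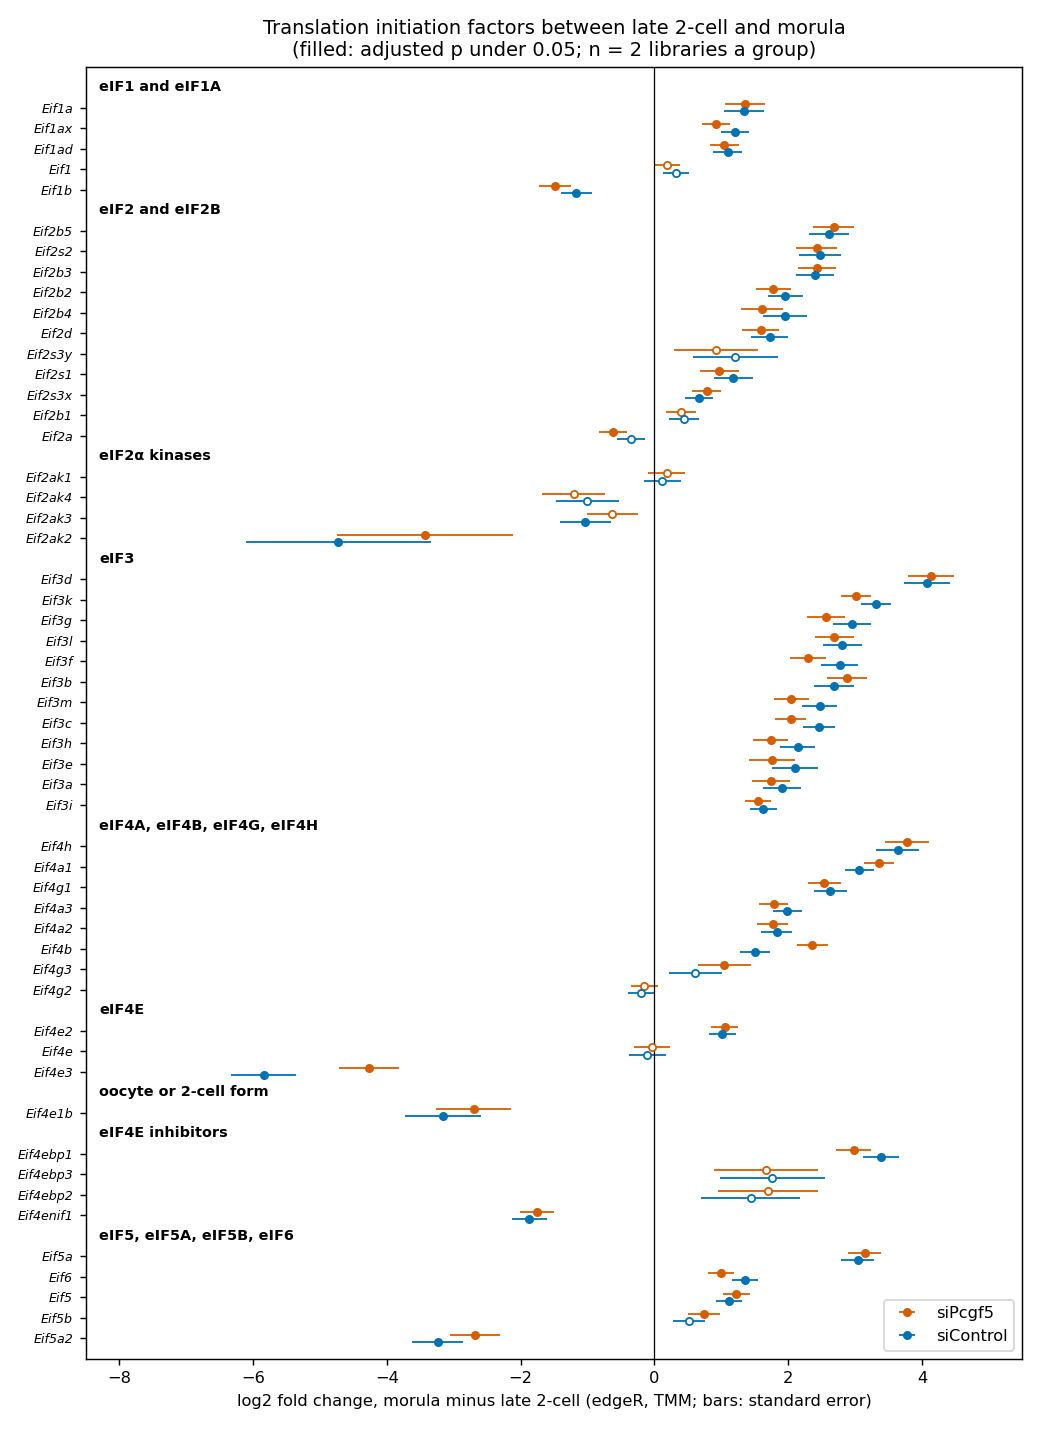
Log2 fold change of morula over late 2-cell (horizontal axis, bars are the standard error of the edgeR fit) for 53 members grouped by role, without the Eif3j pair. Orange stands for siPcgf5 and blue for siControl, each from 2 against 2 pools, and filled points passed an adjusted p of 0.05. The eIF3 subunits lie between 1.55 and 4.13, and Eif4e3 lies furthest to the left at -4.27 in siPcgf5 and -5.84 in siControl.

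The eIF3 complex, which scaffolds the small subunit, rose as a block in siControl, with 12 of 14 genes called and 0 lower, and a median log2 fold change of 2.46. Eif3d, a subunit known to touch the mRNA cap, stood at 338 and 338 CPM in siPcgf5 morulae and 336 and 298 CPM in siControl morulae, against 21.3 and 16.8 CPM and 12.4 and 25.5 CPM in the late 2-cell pools of the same treatments. Its log2 fold change was 4.13 (SE 0.344, adjusted p 6.15e-06) in siPcgf5 and 4.07 (SE 0.343, adjusted p 5.88e-06) in siControl. Eif3k, one of the peripheral subunits, stood at 760 and 806 CPM in siPcgf5 morulae and 787 and 753 CPM in siControl morulae, against 99.5 and 91.8 CPM and 88.8 and 67.0 CPM before. Each of these genes was high in all 4 morula pools and low in all 4 late 2-cell pools, with a wide gap between them.

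The other eIF3 subunits rose less. In siControl the log2 fold change was 2.96 for Eif3g, 2.81 for Eif3l, 2.77 for Eif3f, 2.68 for Eif3b, 2.47 for Eif3m, 2.46 for Eif3c, 2.14 for Eif3h, 2.10 for Eif3e, 1.91 for Eif3a and 1.62 for Eif3i, and the SE lay between 0.201 and 0.342. Eif3a, the largest subunit and a core scaffold, stood at 1119 and 857 CPM in siPcgf5 morulae and 955 and 831 CPM in siControl morulae, against 303 and 278 CPM and 173 and 304 CPM at the late 2-cell stage. Eif3i, a core subunit with a beta-propeller fold, stood at 424 and 451 CPM and at 451 and 447 CPM in morulae, against 164 and 132 CPM and 148 and 144 CPM. The subunits were not equal in amount in any pool. Eif3b was the lowest of 13 (the Eif3j pair counted as 1) in 14 of 16 libraries and Eif3f in 2, and the highest subunit exceeded the lowest by 16.4- to 55.6-fold in TPM. Summed over eIF3, TPM was 4839 ± 1.62 in siControl morulae and 2088 ± 473 in siControl late 2-cell pools (SD, n = 2 each).

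Eif3j1 and Eif3j2 are near-identical copies between which reads cannot be divided with certainty, and Eif3j1 took from 0.00138% to 25.5% of the pair's counts. Their sum is firmer. It stood at 369 ± 1.07 CPM in siPcgf5 morulae and 403 ± 10.3 CPM in siControl morulae, against 612 ± 59.3 CPM and 581 ± 226 CPM at the late 2-cell stage (SD, n = 2 each). On its own Eif3j2 was called lower in siPcgf5 at -0.73 (adjusted p 0.0334) and not in siControl at -0.58 (adjusted p 0.0778). Neither copy was called in the direction of the other 12 genes.

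Of the 11 genes grouped with eIF2 and its exchange factor eIF2B, among them Eif2a and Eif2d, 8 rose in siControl and 0 fell. Eif2s2 had the highest counts of all members in morulae, with 10449 and 11790 CPM in siPcgf5 pools and 11374 and 10239 CPM in siControl pools, against 2085 and 2003 CPM and 1303 and 2602 CPM at the late 2-cell stage. Its log2 fold change was 2.42 (SE 0.311) in siPcgf5 and 2.47 (SE 0.311) in siControl. Eif2s1, which carries the regulatory phosphorylation site, stood at 1512 and 1673 CPM in siPcgf5 morulae and 1708 and 1678 CPM in siControl morulae, against 855 and 749 CPM and 504 and 999 CPM. Its log2 fold change was 0.97 (SE 0.292) and 1.18 (SE 0.293), and this call was not made on TPM. The gamma subunit has an X-linked and a Y-linked copy. Eif2s3x stood at 346 and 331 CPM in siPcgf5 morulae and 292 and 294 CPM in siControl morulae, against 188 and 201 CPM and 157 and 215 CPM. Eif2s3y stood at 111 and 146 CPM and at 156 and 138 CPM in morulae, against 73.5 and 61.1 CPM and 17.9 and 110 CPM, and was not called. The sexes of the pooled embryos are not given in the sources used here, and the 2 siControl late 2-cell pools differed most in this gene.

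Among eIF2B subunits, Eif2b5, the catalytic epsilon subunit, rose with a log2 fold change of 2.68 in siPcgf5 and 2.61 in siControl, and stood at 104 and 94.2 CPM and at 102 and 80.3 CPM in morulae, against 16.8 and 13.7 CPM and 11.1 and 19.0 CPM. Eif2b3 rose by 2.4, Eif2b2 by 1.96 and Eif2b4 by 1.95 in siControl. Eif2b1, the regulatory alpha subunit, stood apart from them, with a log2 fold change of 0.44 (SE 0.222, adjusted p 0.115) in siControl, which turned to -0.55 by limma on TPM. Eif2d, which can deliver the initiator tRNA without eIF2, rose by 1.72 in siControl. Eif2a, another alternative initiator tRNA carrier, stood at 202 and 200 CPM in siPcgf5 morulae and 227 and 246 CPM in siControl morulae, against 295 and 314 CPM and 262 and 346 CPM, with a call at -0.62 (adjusted p 0.0284) in siPcgf5 and none at -0.35 (adjusted p 0.173) in siControl.

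The 4 kinases of eIF2 alpha did not rise. Eif2ak2, the double-stranded RNA sensor PKR, was low throughout and fell to 0.427 and 0 CPM in siPcgf5 morulae and 0.0774 and 0.179 CPM in siControl morulae, against 2.26 and 2.13 CPM and 4.74 and 2.25 CPM. Its log2 fold change was -3.43 (SE 1.31, adjusted p 0.0477) and -4.72 (SE 1.39, adjusted p 0.0150), and the siControl call was lost without replicate 1 of the late 2-cell siControl pools (adjusted p 0.0595) and without replicate 1 of the morula siControl pools (adjusted p 0.0871). Eif2ak3, the endoplasmic reticulum sensor PERK, stood at 8.45 and 7.77 CPM in siPcgf5 morulae and 6.94 and 4.32 CPM in siControl morulae, against 13.2 and 11.6 CPM and 13.1 and 10.1 CPM. It was called in siControl at -1.04 (adjusted p 0.0410), a call lost without any one of 6 of the 8 pools (adjusted p 0.0558 to 0.257), and it was not called in siPcgf5 at -0.63 (adjusted p 0.179). Eif2ak4, the amino acid sensor GCN2, stood at 3.06 and 2.72 CPM and at 4.15 and 5.70 CPM in morulae, against 8.10 and 5.09 CPM and 12.5 and 7.32 CPM, and missed the threshold at -1.21 and -1.0. Eif2ak1, the haem-regulated kinase HRI, stood at 27.0 and 23.7 CPM and at 25.9 and 18.2 CPM in morulae, against 23.0 and 21.0 CPM and 20.5 and 20.4 CPM, with overlapping siControl groups.

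The eIF4A, eIF4B, eIF4G and eIF4H genes rose next to eIF3, with 6 of 8 called higher in siControl. Eif4h stood at 165 and 178 CPM in siPcgf5 morulae and 165 and 126 CPM in siControl morulae, against 14.5 and 10.1 CPM and 8.70 and 14.9 CPM, a log2 fold change of 3.78 (SE 0.328) and 3.63 (SE 0.326). Eif4a1, the main helicase, stood at 1001 and 1205 CPM and at 1165 and 1022 CPM in morulae, against 114 and 98.8 CPM and 125 and 138 CPM, a log2 fold change of 3.35 and 3.06. Its paralogue Eif4a2 rose by 1.83 in siControl and the exon-junction helicase Eif4a3 by 1.98. In TPM the share of Eif4a1 in the Eif4a1 and Eif4a2 pair was 62.5 ± 1.97% in siPcgf5 morulae and 63.0 ± 1.34% in siControl morulae, against 36.5 ± 8.89% and 42.5 ± 0.620% at the late 2-cell stage (SD, n = 2 each). Eif4b, a helicase cofactor, stood at 135 and 110 CPM and at 116 and 89.4 CPM in morulae, against 23.3 and 23.7 CPM and 35.4 and 37.5 CPM.

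The 3 eIF4G scaffolds are paralogues. Eif4g1, the main scaffold, stood at 110 and 98.3 CPM in siPcgf5 morulae and 116 and 90.9 CPM in siControl morulae, against 18.8 and 16.6 CPM and 18.5 and 15.1 CPM, a log2 fold change of 2.54 and 2.63 (SE 0.243 and 0.244). Eif4g2, known as DAP5, lacks the eIF4E-binding part. It stood at 654 and 736 CPM and at 705 and 621 CPM in morulae, against 720 and 800 CPM and 716 and 818 CPM. It was not called by edgeR, at -0.15 and -0.20. In TPM Eif4g2 stood at 70.04 and 76.4 in siPcgf5 morulae and at 73.12 and 64.84 in siControl morulae. The late 2-cell pools held 136.8 and 160.13 TPM in siPcgf5 and 156.36 and 160.49 TPM in siControl, without overlap. Whether Eif4g2 differed between the stages thus depends on the scaling. In TPM Eif4g1 took 17.2% of the 3 eIF4G genes in siPcgf5 morulae and 17.7% in siControl morulae, against 3.20% and 3.03% at the late 2-cell stage, while Eif4g2 took 79.1% and 78.7%, against 94.9% and 94.6%. Eif4g3 stood at 32.0 and 19.4 CPM and at 19.8 and 28.4 CPM in morulae, against 10.4 and 14.1 CPM and 10.9 and 20.8 CPM, and its log2 fold change was 1.05 (adjusted p 0.0485) in siPcgf5 and 0.61 (adjusted p 0.216) in siControl.

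Of the 3 general cap-binding genes, 1 rose and 1 fell. Eif4e, the main cap-binding protein, stood at 2950 and 2370 CPM in siPcgf5 morulae and 2337 and 2267 CPM in siControl morulae, against 2835 and 2545 CPM and 1792 and 3178 CPM, with log2 fold changes of -0.04 (SE 0.271) and -0.10 (SE 0.271). Morula and late 2-cell pools overlapped in CPM. In TPM Eif4e stood at 886 and 689 in siPcgf5 morulae and at 679 and 663 in siControl morulae. The late 2-cell pools held 1514 and 1428 TPM in siPcgf5 and 1100 and 1763 TPM in siControl, without overlap. Whether Eif4e differed between the stages thus depends on the scaling. It held 77.8% to 89.7% of the family's TPM in every library. Eif4e2, a cap-binding repressor also called 4EHP, stood at 430 and 405 CPM and at 429 and 403 CPM in morulae, against 194 and 204 CPM and 183 and 231 CPM. Its log2 fold change of 1.05 in siPcgf5 was called by edgeR, as was that in siControl, where limma on TPM gave -0.0043, so its direction rests on the scaling. Summed TPM of the family was 860 ± 17.4 in siControl morulae and 1686 ± 449 in siControl late 2-cell pools (SD, n = 2 each).

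Eif4e3 and Eif4e1b were the cap-binding forms that fell. Eif4e3, an atypical cap-binding protein, fell to 2.66 and 2.44 CPM in siPcgf5 morulae and 0.852 and 1.51 CPM in siControl morulae, against 49.6 and 47.5 CPM and 96.3 and 40.4 CPM at the late 2-cell stage. The log2 fold change was -4.27 (SE 0.448, adjusted p 2.41e-05) and -5.84 (SE 0.486, adjusted p 5.39e-06). Eif4e1b, which in oocytes binds stored mRNAs, fell to 0.887 and 2.99 CPM and to 1.88 and 2.4 CPM, against 12.9 and 12.3 CPM and 24.0 and 14.5 CPM, a log2 fold change of -2.70 (SE 0.559, adjusted p 0.00214) and -3.15 (SE 0.567, adjusted p 0.000867). Both were highest in replicate 1 of the siControl late 2-cell pools, where the summed TPM of the oocyte genes was also highest, at 49820 against 30500 in replicate 2. The siPcgf5 late 2-cell pools lay between these sums, at 40510 and 40850. Both siPcgf5 pools were above siControl replicate 2 in Eif4e3 but below it in Eif4e1b. The part of oocyte RNA in these falls was not tested. Even at the late 2-cell stage Eif4e1b was 0.650% of the family's TPM in siPcgf5 and 1.19% in siControl, and Eif4e3 was 1.83% and 3.16%.

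The 4 genes that hold eIF4E in check split. Eif4ebp1, which encodes 4E-BP1, rose to 356 and 542 CPM in siPcgf5 morulae and 458 and 527 CPM in siControl morulae, against 52.4 and 60.1 CPM and 52.1 and 42.8 CPM, a log2 fold change of 2.98 (SE 0.263, adjusted p 8.41e-06) and 3.38 (SE 0.268, adjusted p 4.03e-06). Eif4enif1, which encodes the transporter 4E-T that binds eIF4E in stored mRNA particles, fell to 17.8 and 15.7 CPM and to 15.0 and 13.7 CPM, against 52.2 and 59.1 CPM and 45.3 and 60.5 CPM, a log2 fold change of -1.75 (SE 0.259) and -1.87 (SE 0.260). For both genes every morula pool lay apart from every late 2-cell pool. Eif4ebp2 stood at 3.48 and 5.0 CPM and at 3.54 and 5.14 CPM in morulae, against 0.510 and 2.04 CPM and 1.05 and 2.18 CPM, and was not called. Eif4ebp3 stood at 3.84 and 2.26 CPM and at 3.33 and 2.84 CPM, against 1.15 and 0.751 CPM and 0.412 and 1.43 CPM, and was not called.

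**Figure D2:**
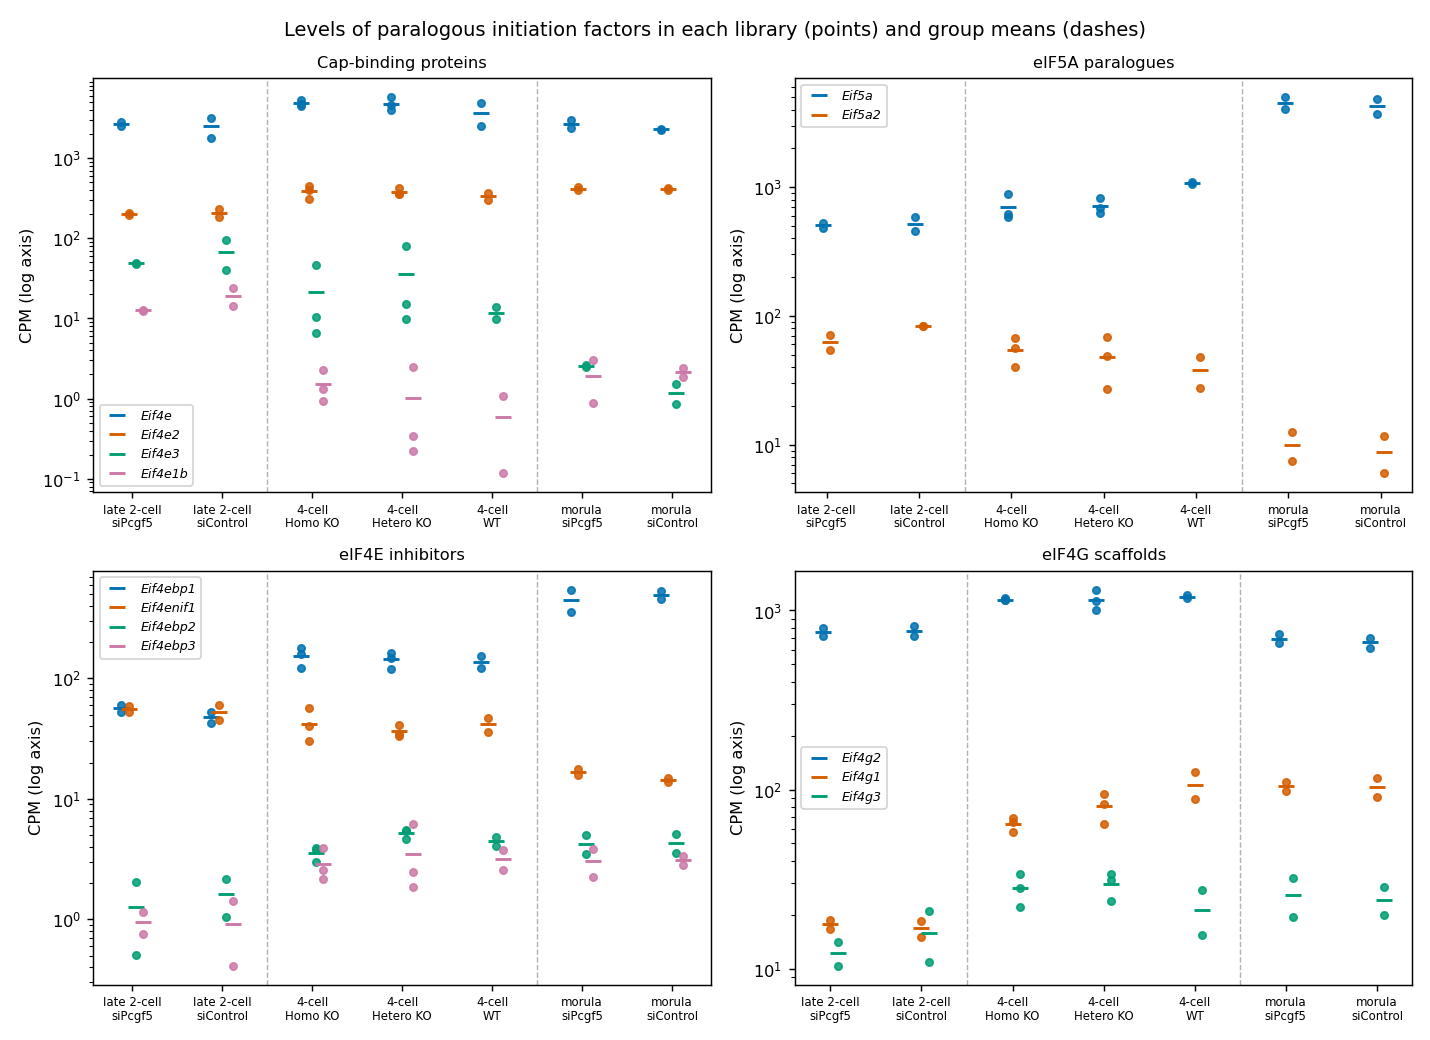
CPM on a log axis in the 7 groups for 4 sets of related genes, the cap-binding proteins, the eIF5A pair, the eIF4E inhibitors and the eIF4G scaffolds. Points are libraries and dashes group means. Eif5a2, Eif4e3, Eif4e1b and Eif4enif1 are lower in all 4 morula pools than in all 4 late 2-cell pools, and Eif5a, Eif4ebp1 and Eif4g1 are higher.

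Among eIF5, eIF5A, eIF5B and eIF6, the eIF5A pair moved in opposite directions. Eif5a, which eases peptide bond formation at difficult sequences and carries the hypusine modification, rose to 4016 and 4988 CPM in siPcgf5 morulae and 4820 and 3676 CPM in siControl morulae, against 525 and 484 CPM and 585 and 457 CPM. The log2 fold change was 3.14 (SE 0.249, adjusted p 4.57e-06) and 3.04 (SE 0.248, adjusted p 4.90e-06). Its paralogue Eif5a2 fell to 12.6 and 7.40 CPM and to 6.01 and 11.6 CPM, against 54.6 and 71.6 CPM and 83.6 and 83.7 CPM, a log2 fold change of -2.69 (SE 0.372) and -3.24 (SE 0.381). In TPM Eif5a2 made up 0.0525 ± 0.0261% of the pair in siPcgf5 morulae and 0.0501 ± 0.0305% in siControl morulae, against 2.76 ± 0.662% and 3.51 ± 0.538% at the late 2-cell stage (SD, n = 2 each). Neither gene overlapped between the 4 morula and the 4 late 2-cell pools.

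Eif5 rose by 1.22 in siPcgf5 and 1.11 in siControl, and Eif6, which keeps the ribosomal subunits apart, by 0.99 and 1.35. Eif5b, the GTPase of subunit joining, stood at 793 and 583 CPM and at 622 and 664 CPM in morulae, against 375 and 437 CPM and 375 and 527 CPM, and its log2 fold change was 0.74 (adjusted p 0.0247) in siPcgf5 and 0.52 (adjusted p 0.0929) in siControl. Among the scanning factors, Eif1 stood at 3036 and 2815 CPM and at 2972 and 2835 CPM in morulae, against 2605 and 2480 CPM and 2188 and 2464 CPM, and was not called at 0.18 and 0.33. Its paralogue Eif1b fell to 54.0 and 68.8 CPM and to 74.4 and 58.7 CPM, against 166 and 175 CPM and 133 and 167 CPM, a log2 fold change of -1.49 (SE 0.236) and -1.17 (SE 0.234). Eif1a and its X-linked paralogue Eif1ax, both eIF1A genes, rose by 1.35 and 0.92 in siPcgf5 and by 1.34 and 1.21 in siControl. Eif1ad, an eIF1A-domain protein, rose by 1.04 and 1.10.

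Setting the 4-cell WT pools between the stages gives an order of events across experiments, in which stage cannot be told apart from experiment, siRNA treatment and depth. Against siControl late 2-cell pools, 33 members were higher in WT 4-cell pools and 1 lower, with 17.5% and 15.2% of 16669 genes called higher and lower. The groups did not overlap for 40 members on the higher side and 6 on the lower, against 68% of genes. In siControl morulae against WT 4-cell pools, 13 members were higher and 9 lower, with 14.9% and 15.3% of genes called, and groups did not overlap for 25 and 17 members, against 65.6% of genes. The 9 lower calls were 17 by limma on TPM and 14 with library sizes alone, and 4 to 8 on leaving out 1 pool, with 4 without replicate 2 of siControl morulae and 5 without replicate 1 of WT. The 1 lower call of the first comparison was 1 to 5 under the alternatives. Both comparisons use the same WT pools and are not independent. Of all genes called, 53.6% were higher in the first comparison (43.0% with library sizes alone, 31.4% by limma on TPM) and 49.4% in the second (34.0% and 31.7%). TPM ratios lay lower than edgeR fold changes by a median of -0.34 and -0.66 (log2) in the 2 comparisons.

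Some factors stood at their morula level in the 4-cell pools. Eif4g1 stood at 125 and 88.7 CPM in WT 4-cell pools, 103% of its siControl morula mean, with log2 fold changes of 2.66 (SE 0.260, 4-cell over late 2-cell) and -0.04 (SE 0.244, morula over 4-cell). Eif3c, a core eIF3 subunit, stood at 358 and 337 CPM in WT, 114% of the morula mean, with 2.64 and -0.18, and Eif3b at 99.3 and 92.3 CPM, 97.3%, with 2.64 and 0.04. Eif3a stood at 987 and 1282 CPM in WT, 127%, with 2.25 and -0.34. In TPM the 4-cell level of these 4 genes was 164%, 179%, 154% and 197% of the morula mean.

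By CPM, others had most of the difference after the 4-cell stage. Eif3k stood at 135 and 171 CPM in WT 4-cell pools, 19.8% of its siControl morula mean, with log2 fold changes of 0.97 (SE 0.260) and 2.33 (SE 0.270). Eif4h stood at 32.5 and 38.0 CPM, 24.2%, with 1.58 and 2.05, and Eif5a at 1059 and 1096 CPM, 25.4%, with 1.05 and 1.98. Eif4ebp1 stood at 122 and 152 CPM, 27.8%, with 1.53 and 1.85, and Eif2s2 at 2804 and 4763 CPM, 35.0%, with 0.95 and 1.51. Eif2d stood at 18.5 and 14.1 CPM, 22.6%, and was called in the second comparison alone, at 2.15 against -0.43 in the first. In TPM the 4-cell level was 32.0% of the morula mean for Eif3k, 38.0% for Eif4h, 40.9% for Eif5a, 44.6% for Eif4ebp1, 53.9% for Eif2s2 and 36.2% for Eif2d. Their siControl late 2-cell levels in TPM were 20.9%, 16.1%, 25.1%, 19.8%, 35.7% and 60.9% of the morula mean, in the same order. The first call of Eif3k was lost without replicate 2 of siControl late 2-cell or of WT (adjusted p up to 0.0946), and that of Eif2s2 without replicate 1 of siControl late 2-cell or replicate 2 of WT (adjusted p up to 0.302).

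The falls also passed the threshold in different comparisons, and no test compared their timing between genes. Eif4e1b was at 1.07 and 0.118 CPM in WT 4-cell pools and was the 1 member called lower there, at -5.02 (SE 1.12), with no call afterwards at 1.85. Eif4e3 stood at 13.9 and 9.71 CPM, was not called in the first comparison at -2.54 (adjusted p 0.0911) and was called in the second at -3.32 (adjusted p 0.0473), a call lost without either morula pool (adjusted p 0.250 and 0.156) or either WT pool (adjusted p 0.174 and 0.0971). Eif5a2 stood at 48.3 and 27.7 CPM, with -1.14 (adjusted p 0.0524) and then -2.11 (adjusted p 0.00188). Eif4enif1, at 47.3 and 35.8 CPM, was called in the second comparison alone at -1.53, as were Eif1b at -1.02 and Eif2ak3 at -1.88. Eif5b stood at 1196 and 1755 CPM in WT, 229% of its morula mean, and was called higher in the first comparison at 1.71 and lower in the second at -1.20. Eif4g2 did the same at 0.64 and -0.85, and Eif1 at 0.80 and -0.48. On leaving out 1 pool at a time, the second call of Eif1 was lost in 11 of 16 fits (adjusted p up to 0.375), and those of Eif1b (up to 0.110) and Eif2ak3 (up to 0.157) without replicate 2 of siControl morulae and without replicate 1 of WT. The first call of Eif4g2 was lost without replicate 1 of siControl late 2-cell and without replicate 2 of WT (adjusted p up to 0.0794).

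**Figure D3:**
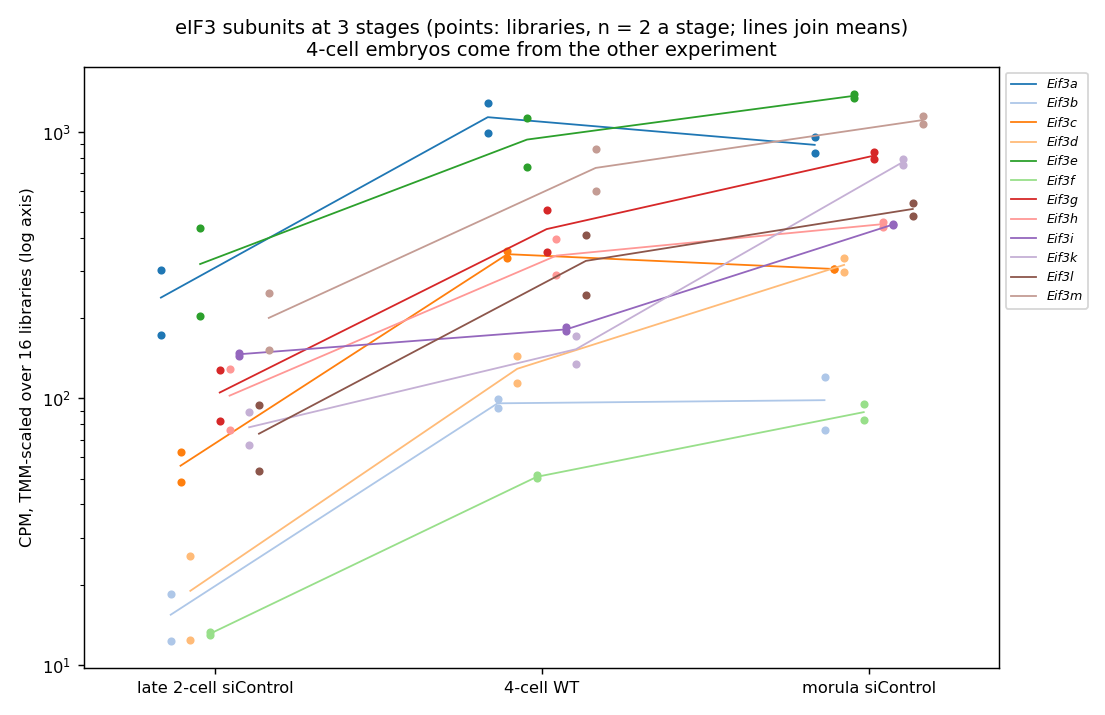
CPM on a log axis of 12 eIF3 subunits in siControl late 2-cell, WT 4-cell and siControl morula pools, with 2 libraries per stage as points and lines through the means. Eif3a, Eif3b and Eif3c reach their morula level in the 4-cell pools, and Eif3k stands at 19.8% and Eif3d at 40.8% of theirs.

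Knockdown of Pcgf5 gave 0 calls among the 55 members at either stage by edgeR, and 0 by DESeq2 and by limma. At the late 2-cell stage 0.00589% of 16980 genes were called higher and 0.00589% lower, and 2 members had an unadjusted p under 0.05, against 5.58% of all genes. Eif4b stood at 23.3 and 23.7 CPM in siPcgf5 pools, against 35.4 and 37.5 CPM in siControl pools, a log2 fold change of -0.62 (SE 0.226, adjusted p 0.809). Eif6 stood at 225 and 202 CPM in siPcgf5 pools, against 145 and 161 CPM in siControl pools, a log2 fold change of 0.50 (SE 0.197, adjusted p 0.871). These groups did not overlap, which held for 7 members on the higher side and 4 on the lower, against 31.2% of all genes. Eif3f stood at 14.3 and 22.4 CPM against 13.3 and 12.9 CPM, with 0.51 (SE 0.260), Eif3k had 0.31 (SE 0.205) and Eif3g 0.38 (SE 0.264). Fold changes were above 0 for 41 of 55 members with a median of 0.09, and the median was -0.07 without replicate 1 of the siControl pools and 0.36 without replicate 2. Without replicate 2 of siControl, Eif2s3y was called higher at 1.91 (adjusted p 0.0310).

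At the morula stage 0% of genes were called in either direction, and 1 member had an unadjusted p under 0.05, against 4.22% of all genes. Pcgf5 itself was therefore not called, at 39.5 and 32.4 CPM in siPcgf5 pools against 246 and 166 CPM in siControl pools. A lack of calls with so few pools does not show that members were unchanged. Eif4e3 stood at 2.66 and 2.44 CPM in siPcgf5 pools, against 0.852 and 1.51 CPM in siControl pools, a log2 fold change of 1.10 (SE 0.432, adjusted p 1.0). Eif2ak4 had -0.78 (SE 0.470), Eif2ak3 0.51 (SE 0.379), Eif2a -0.25 (SE 0.208) and Eif4b 0.24 (SE 0.223). The groups did not overlap for 10 members on the higher side and 9 on the lower, against 31.5% of all genes. Outside the Eif3j pair, 52 of 53 members lay within a log2 fold change of 1 and 49 within 0.5, with a median SE of 0.255. The difference between the knockdown effects at the 2 stages gave 0 calls among members and 0% among all genes, and 2 members had an unadjusted p under 0.05, against 4.96% of all genes. These were Eif4e3 at 1.57 (SE 0.579) and Eif4b at 0.86 (SE 0.317), each with an adjusted p of 0.966, followed by Eif3c at -0.42, Eif6 at -0.36 and Eif3f at -0.47.

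Deletion of the MT2C_Mm repeat likewise gave 0 member calls by edgeR, where 0% of 13766 genes were called in any of the 3 comparisons. Here too Pcgf5 was not called, at 162 to 211 CPM in Homo KO against 294 to 328 CPM in WT. In Homo KO against WT, 6 members had an unadjusted p under 0.05, against 12.4% of all genes. Eif2a stood at 375, 409 and 359 CPM in Homo KO, 306, 345 and 282 CPM in Hetero KO and 253 and 251 CPM in WT. The 3 groups did not overlap, and the log2 fold change of Homo KO over WT was 0.60 (SE 0.165, adjusted p 0.243). By the DESeq2 Wald test it was 0.62 (adjusted p 0.0264), where 1.7% of genes were called higher and 0.748% lower. Eif4g1 stood at 65.6, 57.9 and 68.9 CPM in Homo KO, 82.7, 64.5 and 94.6 CPM in Hetero KO and 125 and 88.7 CPM in WT, with -0.73 (SE 0.231, adjusted p 0.281) for Homo KO. Eif3f stood at 23.4, 27.7 and 36.9 CPM in Homo KO, 41.4, 40.3 and 40.6 CPM in Hetero KO and 51.4 and 50.1 CPM in WT, with -0.79 (SE 0.251, adjusted p 0.283). Both lay below WT in every Homo KO pool, and Eif3f also below every Hetero KO pool.

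Eif5a stood at 890, 591 and 618 CPM in Homo KO, 629, 686 and 821 CPM in Hetero KO and 1059 and 1096 CPM in WT. Its log2 fold change over WT was -0.62 (SE 0.201, adjusted p 0.285) in Homo KO and -0.60 (SE 0.201, adjusted p 0.945) in Hetero KO, 2 values that share the WT pools. Eif2s1 had 0.48 (SE 0.198) in Homo KO, and Eif3j2, uncertain as above, 0.48 in Homo KO and 0.34 in Hetero KO. In Hetero KO against WT 2 members had an unadjusted p under 0.05, against 4.76% of all genes, with Eif3b at -0.56 (SE 0.233) after Eif5a, then Eif2b5 at -0.54 and Eif4a2 at -0.43. Homo KO against Hetero KO gave 0 such members, against 8.22% of all genes, and the smallest p belonged to Eif2a at 0.30, Eif2s3x at -0.48, Eif3f at -0.47, Eif1ax at -0.41 and Eif2s1 at 0.29. Groups did not overlap for 19 members in Homo KO against WT, 5 higher and 14 lower, against 30.4% of genes, for 8 in Hetero KO, 3 higher and 5 lower, against 20.6%, and for 4 in Homo KO against Hetero KO, against 14.7%.

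**Figure D4:**
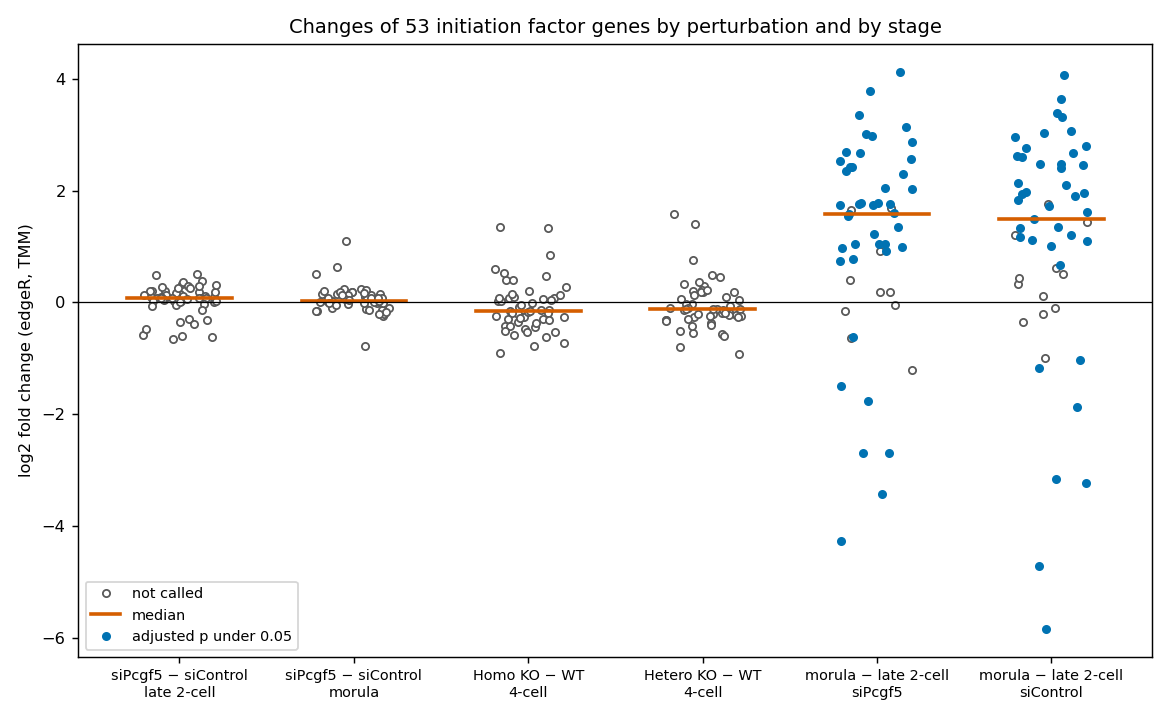
Log2 fold changes of 53 members in 6 comparisons, as points, with an orange line at the median and filled points for calls at an adjusted p of 0.05. The siPcgf5 and knockout comparisons hold 0 calls and most points near 0, and the morula minus late 2-cell comparisons spread between -5.84 and 4.13.

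Eif4e3 also varied among 4-cell pools. It stood at 6.59, 10.5 and 46.7 CPM in Homo KO, 81.1, 15.3 and 9.78 CPM in Hetero KO and 13.9 and 9.71 CPM in WT. The 2 high pools were also the highest of their groups in summed TPM of oocyte genes, at 5048 against 2859 and 3067 in Homo KO and at 8717 against 3444 and 1778 in Hetero KO, while WT held 3246 and 2555. The part of oocyte RNA in these levels was not tested. Eif4e1b, at far lower levels, stood at 1.33, 0.932 and 2.28 CPM in Homo KO, 2.47, 0.225 and 0.342 CPM in Hetero KO and 1.07 and 0.118 CPM in WT. It was highest in the same Homo KO pool and the same Hetero KO pool as Eif4e3.

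Other parts of the translation machinery moved between the stages to differing degrees in siControl. Of 8 elongation factors tested, 6 rose and 1 fell, with a median log2 fold change of 2.95, and the smallest p belonged to Eef1b2 at 3.59, Eef1g at 4.90 and Eef1d at 3.08, all parts of the eEF1 exchange complex. Eef2k, the inhibitory kinase of eEF2, fell at -4.62 (SE 1.02). Of 9 termination and recycling genes 5 rose and 0 fell (median 0.91), led by Mcts1, Pelo and Gspt1 at 2.07, 4.46 and 1.47. Poly(A)-binding proteins and partners divided, with 3 of 8 higher and 3 lower (median -0.58), Pabpc4 at 2.53, Pabpc1 at 2.03 and the nuclear Pabpn1 at -2.44. Of 15 genes of the mTOR and MNK axis upstream of eIF4E, 6 rose and 3 fell (median -0.28), with Larp1 at 2.89, Rheb at 1.88 and Rps6kb2 at 4.02.

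Genes downstream of eIF2 alpha phosphorylation and its phosphatases gave 2 of 12 higher and 6 lower (median -0.72), with Asns at 2.39, Ddit3 at -2.35 and Slc7a11 at -5.81. Of 13 oocyte mRNA storage and repression genes 3 rose and 8 fell (median -2.40), with Btg4 at -9.75, Dazl at -3.89 and Lsm14a at -2.40. Of 7 ribosome dormancy genes and initiation modulators 4 rose and 0 fell (median 0.85), with Serbp1 at 2.61, Abcf1 at 1.52 and Ddx3x at 0.85. The counts and fold changes of all these lists use TMM scaling alone. TPM ratios lay lower than edgeR fold changes by a median of -1.02 (log2) in siControl. Rises smaller than that, such as Ddx3x, may depend on the scaling, which was not tested for these lists. The medians of the elongation, termination, modulator and mTOR and MNK lists lay above the all-gene median of -0.34 in siControl, and those of the poly(A), stress and storage lists lay below it. In siPcgf5 the counts were 6 higher and 1 lower for elongation, 5 and 2 for termination, 3 and 4 for poly(A) genes, 6 and 3 for the mTOR and MNK axis, 2 and 5 for stress genes, 2 and 8 for storage and 4 and 0 for modulators. Against siControl, siPcgf5 gave 0 calls in each of these lists at both stages.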

How the data were processed

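Expected counts and TPM are the values the authors deposited for each RNA library, made with RSEM per the file headers. The submitters' processing notes name STAR 2.7.10, RSEM 1.3.3, Bowtie2 2.4.5, deepTools and mm10 without roles. Libraries came from poly(A) RNA with SMART-Seq v4 PLUS. The 4 chromatin libraries were not used.

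The members, gene lists and tests were chosen with earlier results of these data known. Deposited expected counts were rounded, filtered (filterByExpr, minimum count 10), TMM-scaled and then fitted by edgeR 4.0.16 under R 4.3.3 (quasi-likelihood, robust, two-sided, Benjamini-Hochberg over all genes, threshold 0.05). The 8 knockdown libraries (16980 genes), the 8 4-cell libraries (13766 genes) and, for comparisons across experiments, all 16 (16669 genes) were fitted with 1 coefficient per group, without a replicate block. Common coefficients of variation were 0.460, 0.517 and 0.514. CPM in the text use TMM over all 16 libraries, so they differ slightly from the scale of the fits. TPM serve for comparing genes and for shares. Alternatives were DESeq2 size factors, no filter, the DESeq2 1.42.0 Wald test, limma 3.58.1 on log2(TPM + 1), only the groups compared, a replicate block, leaving out each library, and library sizes without TMM. The edgeR and DESeq2 code was run on simulated counts with large set changes and less spread than the common coefficients of variation above. That run checks the code and not the power to detect small changes in these data.

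Every member is covered by role. Values are given for all cap-binding, inhibitor, kinase and oocyte members and all paralogue sets, the 10 largest rises and falls in siControl with groups apart and at least 10 CPM, the 10 highest in TPM, and called members or, where under 5 were called, the 5 with the smallest p. Of the other lists, up to 3 genes with the smallest p are named, and Eef2k and Eif2s1 in Homo KO were added after their values were seen. Promoters with a window outside the annotated gene were chosen after the values were seen.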

Additional observations from a re-analysis of the deposited data

How the results depend on the processing

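In siControl, morula over late 2-cell, the DESeq2 size factors, no filter, DESeq2, only the groups compared and the replicate block moved neither count of members by over 1.5 times. Lower calls in siControl were 15 by limma on TPM and 12 with library sizes alone, an alternative chosen after seeing the data, and in siPcgf5 14 and 12. Leaving out a library gave 33 to 39 higher and 6 to 8 lower in siControl, and 33 to 38 and 5 to 8 in siPcgf5, with 5 without replicate 2 of either siPcgf5 stage. For WT 4-cell over siControl late 2-cell, lower calls were 2 with DESeq2 size factors, 2 with no filter, 2 with only the groups compared, 3 with library sizes alone, 5 by DESeq2 and 5 by limma on TPM, and leaving out a library gave 28 to 34 higher and 1 to 2 lower. For siControl morula over WT 4-cell, lower calls were 17 by limma and 14 with library sizes alone, and leaving out a library gave 10 to 16 higher and 4 to 8 lower, with 4 without replicate 2 of siControl morulae and 5 without replicate 1 of WT. Homo KO over WT gave 1 higher by DESeq2 (Eif2a). The siPcgf5 late 2-cell comparison gave 0 to 1 higher on leaving out a library, the 1 being Eif2s3y (adjusted p 0.0310) without replicate 2 of siControl. All other counts of the perturbation comparisons were 0 under each alternative.

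Signs turned in siControl for Eif1 (-0.31 with library sizes alone, -0.70 by limma), Eif2ak1 (-0.053 with DESeq2 size factors and by DESeq2, -0.53 with library sizes alone, -0.83 by limma, and from -0.14 to 0.36 on leaving out a siControl morula pool), Eif2b1 (-0.19 with library sizes alone, -0.55 by limma), Eif4g3 (-0.0084 and -0.26), Eif5b (-0.11 and -0.46), Eif2s3x (-0.32 by limma), Eif4e2 (-0.0043 by limma) and Eif4e (from -0.45 to 0.33 on leaving out a siControl late 2-cell pool). In siPcgf5 limma turned Eif2s3x (-0.087) and Eif5b (-0.14). The cause was not tested. Eif2s3x lost its siControl call without either siControl morula pool (adjusted p 0.0974 and 0.101), and the siPcgf5 calls of Eif2ak2, Eif2a, Eif3j2, Eif4g3 and Eif5b were each lost on leaving out one or more pools. Replicate numbers did not pair the pools (correlations from -0.038 to 0.007 in the knockdown and -0.129 to 0.168 at the 4-cell stage). With the replicate block 34 members rose and 7 fell in siControl and 37 and 8 in siPcgf5, with 0 elsewhere. No paired analysis was possible because the numbers belong to different experiments for the 2 comparisons with WT 4-cell pools. Members under 10 CPM, such as Eif2ak2, Eif4ebp2 and Eif4ebp3, rest on few reads.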
